A study of Zea mays with 16 samples.

Results

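The mitochondrial genome of maize is represented in the count tables by 208 gene IDs, all those that begin with Zeam, of 46430 IDs in all. They comprise 37 named protein genes, 138 open reading frames (orf genes, all but orfX named by their length), 4 ribosomal RNA IDs and 29 transfer RNA IDs. The class was read from the ID and from the RefSeq symbol, which all 208 had. RefSeq marks 18 of the protein and reading frame IDs and 8 of the transfer RNA IDs as pseudogenes, rbcL-ct and trnR-a among them. Leaf RNA came from 4 maize lines, B73 (the inbred of the reference genome), B104 (widely used in maize transformation), CML333 and M37W (both founder lines of the nested association mapping panel). Each line gave 2 control libraries from plants held at 26 °C and 2 chilled libraries from plants placed at 4 °C, so there were 8 groups and 16 libraries. The day was 14 h and the night 10 h, the irradiance 250 µmol per square metre and second for all plants, and no line carried a stated transgene or mutation. The sources used here do not give how long the chilling lasted, how old the plants were or whether a library is 1 plant or a pool. Nothing states that replicates were separate plants, so the p-values measure the spread between these libraries, which may be technical. Per library values are given in the order replicate 1, replicate 2.

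Plant mitochondria keep a small genome of their own that encodes the RNAs of the mitochondrial ribosome, part of its proteins and transfer RNAs, core subunits of respiratory complexes I, III, IV and V, and proteins that attach heme to cytochrome c. Most other mitochondrial proteins are encoded in the nucleus and imported. The primary transcripts are long, often span neighbouring genes, and are cut, spliced and edited by imported proteins, so steady levels depend on RNA processing and decay as well as on transcription. In plant mitochondria a poly(A) tail generally marks RNA for degradation, unlike in the cytoplasm. The library kit primed on poly(A), so the counts below cover the mitochondrial RNA that was primed in this way, from tails or from A-rich stretches, and not the whole pool. Genes differ in how they are primed, so a share of mitochondrial counts is a share of reads and not of molecules, and comparisons are made across libraries for the same gene.

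The libraries held 1780344 to 2705564 counts each. Both B104 control libraries stood apart. On log2(CPM + 1), where CPM is counts per 1000000 counts of the library, they correlated with each other at r = 0.890 and with the other 14 libraries at 0.370 to 0.510, while those 14 correlated among themselves at 0.649 to 0.970. Ensembl noncoding RNA IDs took 5.03% and 3.69% of the counts of the B104 controls and 0.0352% to 0.101% of the others, and plastid IDs took 0.000628% and 0.000416%, against 0.00532% to 0.0543% elsewhere. The library labelled CML333 chilled replicate 2 went against its label. On a score made of 867 genes that rose and 356 that fell on chilling in both B73 and M37W it stood at -2.37. That is inside the span of the 8 controls (-2.38 to -0.59), and the remaining 7 chilled libraries had 1.38 to 1.97. The genes were picked from the B73 and M37W libraries, so the choice fixed the separation of those libraries. Of the B104 and CML333 libraries, the controls had -2.38 to -0.59 and the other chilled ones 1.38 to 1.85. Over 39 genes that were on or off by line, 66.7% of states were shared between control and chilled CML333, against 94.9% for M37W, so the CML333 libraries are named here by their labels. Nuclear IDs are not paired with names, and the leaf origin could be checked only against the plastid IDs.

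Of the 208 mitochondrial IDs, 81 had at least 1 count in some library and 127 had none. A count of 0 over all 36096072 counts allows a level of up to 0.0831 CPM. The 132232 mitochondrial counts were concentrated in few IDs. The small-subunit ribosomal RNA rrn18 had 38571, the reading frame orf99-d 33982 and the large-subunit ribosomal RNA rrn26 29604, so that 3 IDs held 77.3% and the 7 highest held 95.6%. By class, ribosomal RNA took 56.2% of the mitochondrial counts, reading frames 26.6%, named proteins 16.6% and transfer RNAs 0.578%.

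Genes of the same complex were read very unequally. Among the 6 IDs of complex I, which passes electrons from NADH to ubiquinone, nad4 held nearly all counts and nad6, nad7 and nad9 had 0. Of the 6 IDs of the ATP synthase, complex V, only atp4 was read, with 266 counts, and atp1-a1, atp1-a2, atp6, atp8 and atp9 had 0. All 3 subunits of cytochrome c oxidase, complex IV, were read (cox1, cox2 and cox3), and cob of complex III had 5 counts. All 4 genes of cytochrome c maturation had counts, as did 6 of 9 ribosomal proteins (0 for rps4, rps13 and rpl16), 10 of 29 transfer RNA IDs, 46 of 138 reading frames and the intron maturase mat-r, with 56. Of 7 protein IDs that lie in plastid DNA carried over to the mitochondrial genome (marked -ct), 2 were read. Such genes have near-identical plastid copies, and the sources used here do not say how reads with several matches were counted.

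In B73 the mitochondrial share of all counts was 0.354% and 0.288% at 26 °C and 0.0715% and 0.212% at 4 °C. In B104 it was 1.20% and 1.52% at 26 °C and 0.326% and 0.121% at 4 °C. In CML333 it was 0.330% and 0.0869% before 0.178% and 0.0309%, and in M37W 0.188% and 0.101% before 0.244% and 0.179%, with control values first. The B104 controls thus lay above all 14 other libraries, and chilled lay below control without overlap in B73 and B104 but not in CML333 or M37W. Fewer mitochondria per leaf cell, less RNA per mitochondrion and a different part of that RNA primed by the kit cannot be told apart in these values.

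**Figure D1:**
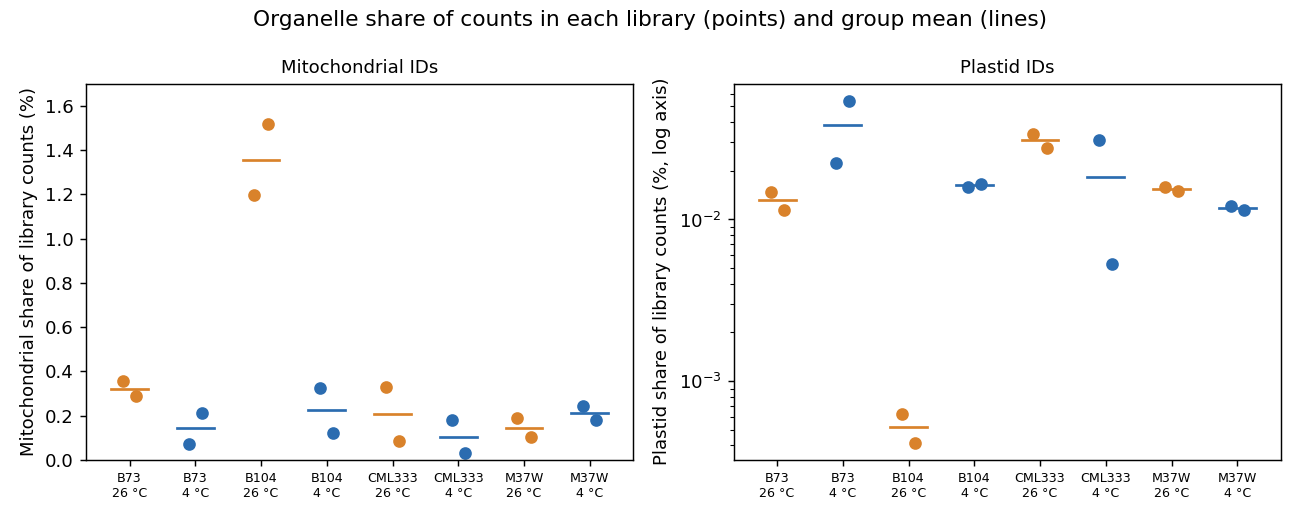
Share of each library's total counts (%) taken by mitochondrial IDs (linear axis) and by plastid IDs (log axis), with 1 point per library and control and chilled groups of each line side by side. The 2 B104 control libraries are the highest for mitochondrial IDs (1.20% and 1.52%) and the lowest for plastid IDs.

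Replicates of a group differed widely in this share. The higher replicate exceeded the lower 5.78-fold in chilled CML333, 3.79-fold in control CML333, 2.96-fold in chilled B73 and 2.70-fold in chilled B104, and 1.23-fold to 1.86-fold in the other 4 groups. For comparison, the median nuclear gene of at least 30 CPM differed 1.14-fold to 1.64-fold between replicates of the 8 groups. The mitochondrial share differed less than that median gene in the B73 controls (1.23-fold against 1.29-fold) and the B104 controls (1.27-fold against 1.64-fold). The difference ran through most mitochondrial genes at once. Of the 12 mitochondrial IDs with the highest mean CPM, 11 or 12 were higher in the replicate with the higher share in 6 of the 8 groups, and 6 and 4 in the B73 and B104 controls.

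What the mitochondrial reads consisted of also differed between lines. Named protein genes made up 41.9% and 45.3% of mitochondrial counts in control CML333 and 45.2% and 46.6% in control M37W, but 9.52% and 5.95% in control B73 and 13.2% and 11.9% in control B104. After chilling the protein share was 16% and 15.4% in CML333 and 29.4% and 27.3% in M37W, below both controls in each. In B73 it was 9.35% and 13.1% and in B104 11% and 8.28%. The ribosomal RNAs made up 74.1% and 74.6% in the B104 controls, 7.92% and 20% in the B73 controls and 57.4% and 42.6% in chilled B73. In M37W they stayed between 30% and 32.9% in all 4 libraries.

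**Figure D2:**
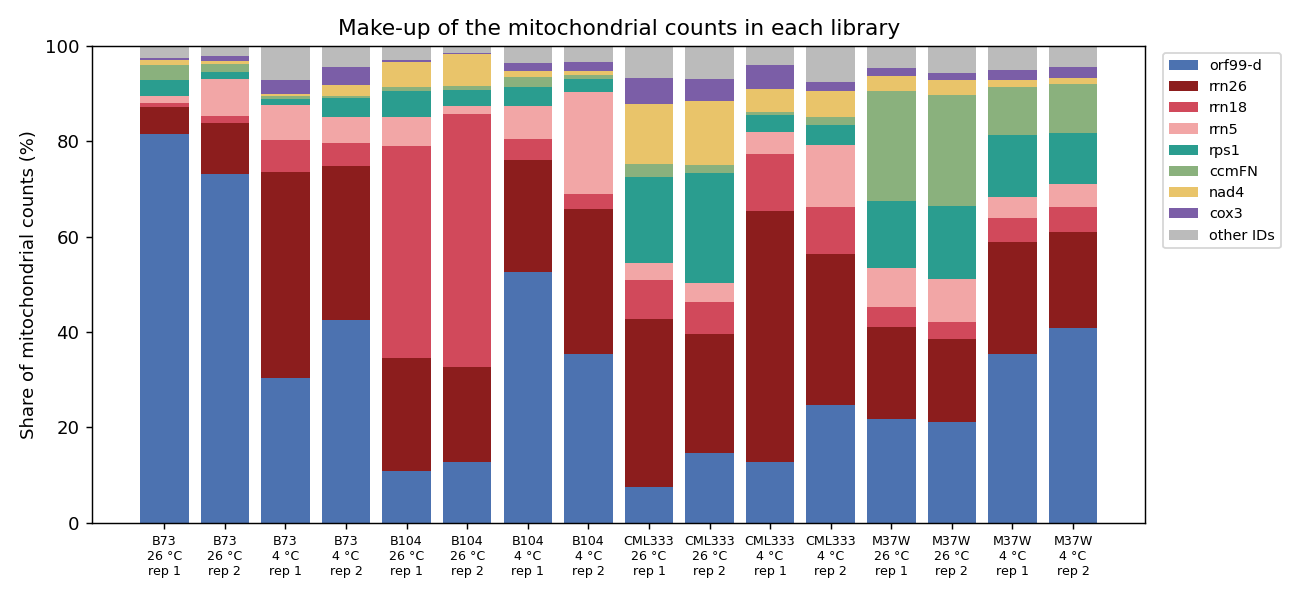
Composition of the mitochondrial counts in each of the 16 libraries, as stacked shares (%) that add up to 100%. Orf99-d, rrn26, rrn18, rrn5, rps1, ccmFN, nad4 and cox3 are drawn singly and all other IDs together. Orf99-d fills most of the bar in the B73 controls (81.6% and 73%), and rrn18 takes 44.5% and 53.1% in the B104 controls. Rps1 takes 18.1% and 23.1% in the CML333 controls, and ccmFN 23.1% and 23.3% in the M37W controls.

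Differences between groups were tested with edgeR's quasi-likelihood test over all IDs that passed the low-count filter (17410, of which 22 were mitochondrial), and an ID was called where its adjusted p (Benjamini-Hochberg) was below 0.05. The 22 included the ribosomal RNAs rrn18, rrn26 and rrn5 and the reading frames orf99-d, orf119-a, orf101-a, orf140-b and orf1159. The IDs of protein type were nad3, nad4, cox1, cox3, atp4, ccmC, ccmFN, rps1, rps7, rps12 and the pseudogene rbcL-ct. Those of transfer RNA type were trnS-a, trnS-b and the pseudogene trnR-a. Of the 22, ccmC, trnS-a and trnS-b passed the filter with the B104 controls and not without them. The filter itself thus fixed that they were higher there. For these 3 no single test that involves the B104 controls is given. In B104 and for the B104 controls, counts of calls are first given over the other 19. Counts over the 22, and those under other settings or with libraries left out, include these 3 and are not read as results for them. Orf119-a passed the filter only through the chilled B73 libraries (5.37 and 5.62 CPM, with at most 3.84 CPM in any other library). The filter thus fixed its rise in B73. Calls of orf119-a in B73 or in a mean response are counted but not read as results for it. The other 186 IDs were not tested. Among them 59 had counts, at most 64 each (ccmFC) and 534 together, which is 0.404% of the mitochondrial counts.

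In B104, 9 of these 19 differed between chilled and control libraries, 2 that rose and 7 that fell. Of all 16383 IDs that pass the filter also without the B104 controls, 28.9% rose and 21.2% fell. With ccmC, trnS-a and trnS-b counted there were 12 of 22, where 27.3% of all tested IDs rose and 24.5% fell. In B73, CML333 and M37W 0 of the 22 passed, where 3.42%, 15.4% and 0.408% of all tested IDs passed. At an unadjusted p under 0.05 there were 4 in B73, 4 in CML333 and 1 in M37W, where 21.7%, 29.1% and 15.7% of all tested IDs were. DESeq2 called 1 (ccmFN) in B73, 2 (orf140-b and rps1) in CML333 and 0 in M37W, against 7.17%, 17.3% and 3.47% of all IDs. With 22 members these counts are small, and no difference between the members and all IDs is read from them. In the mean of the 4 responses 5 passed, orf119-a that rose (22.4% of all IDs did) and nad4, atp4, rps1 and ccmFN that fell (14.5% did). The median log2 fold change of the 19 was 0.16 in B73, -1.33 in B104, -0.87 in CML333, 0.87 in M37W and -0.30 in the mean, and that of the 16383 lay between -0.01 and 0.12 in these 5 comparisons. The B104 values rest on the control libraries that stood apart, and the mean response kept 2 calls (orf119-a and ccmFN) without the B104 libraries. With the CML333 libraries left out too, a mean over B73 and M37W added after the values were seen, ccmFN fell and nad3, rrn18 and rrn26 rose (4 of 19, where 29.1% of all IDs tested there passed). Nad3 passed the filter of that fit only through chilled M37W, so its call is counted but not read as a result. With 1 library left out, the B104 count of 12 fell to 6 without chilled replicate 2 and 7 without control replicate 1 of B104, and the count in the mean was 3 without control replicate 1 of B73 or M37W and 9 without B104 chilled replicate 1. In B73 the count became 1 without either chilled CML333 library. In CML333 it became 3 without its chilled replicate 1 and 1 without either chilled library of B73 or B104.

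**Figure D3:**
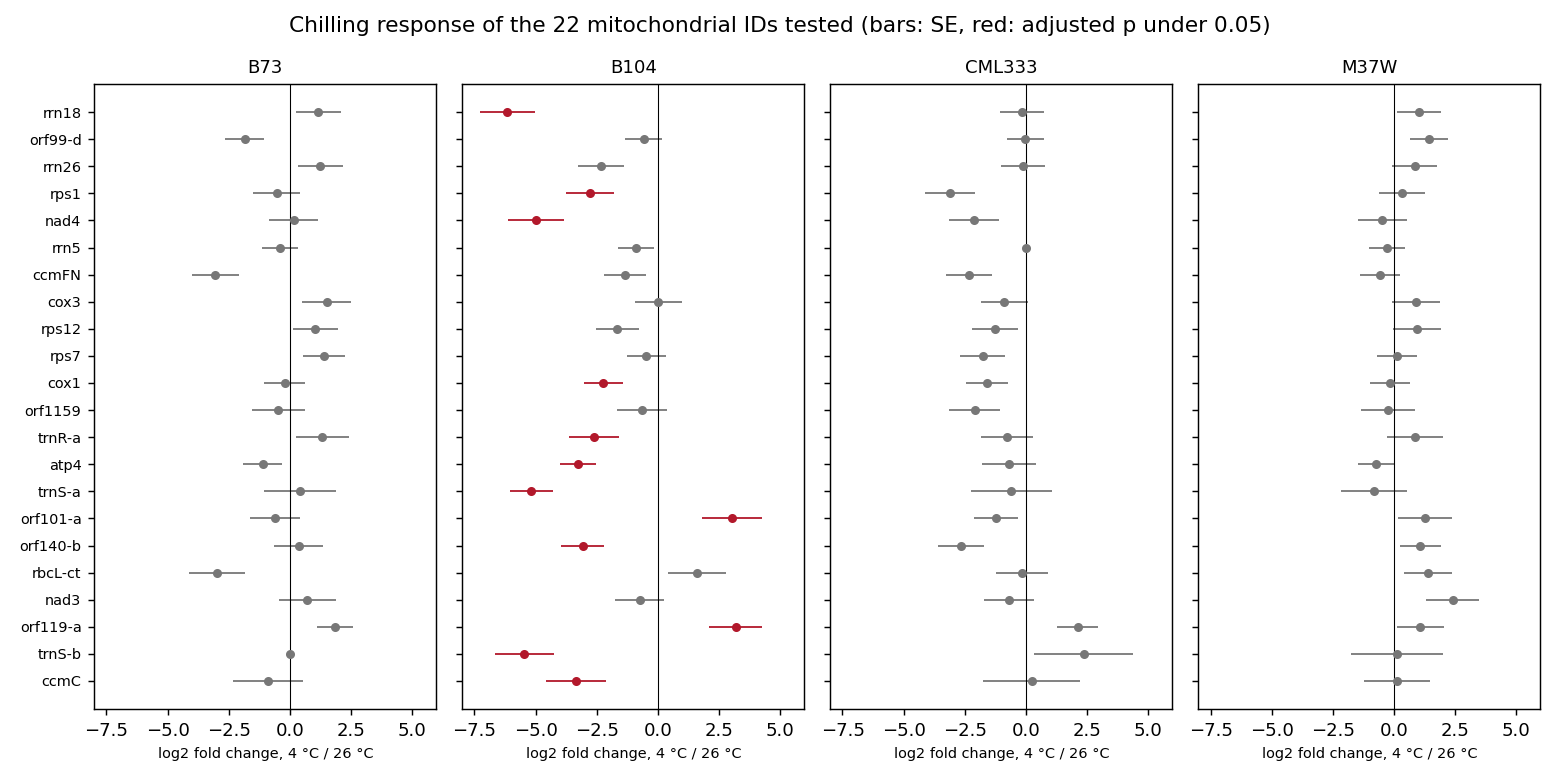
Chilled minus control log2 fold change from edgeR's fit of all 16 libraries for the 22 tested mitochondrial IDs (rows) in each line (panels), with bars of 1 SE where one could be estimated and red for an adjusted p under 0.05. Red points occur in the B104 panel, where most IDs lie left of 0, while in M37W most lie right of 0. For ccmC, trnS-a and trnS-b the low-count filter fixed the direction in B104, and for orf119-a in B73.

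The ribosomal RNAs form the core of the mitochondrial ribosome, rrn18 in its small and rrn26 and rrn5 in its large subunit. In the B104 controls rrn18 stood at 5318 and 8069 CPM, against 148 and 37.5 CPM in the chilled B104 libraries. It stood at 35.2 and 46.1 CPM in control and 48.3 and 102 CPM in chilled B73, at 274 and 57.2 and then 213 and 30.7 CPM in CML333, and at 77.0 and 35.8 and then 124 and 94.6 CPM in M37W. The B104 controls exceeded every other library by far, and the chilled B104 libraries lay within the range of the other lines. In B73 and M37W both chilled libraries lay above both controls, by narrow gaps. In B104 rrn18 fell by 6.15 on the log2 scale (SE 1.11, edgeR adjusted p 0.000549), a CPM ratio of 72.8 from 35727 and 404 counts. The B104 controls exceeded the mean of the other 3 control groups by 6.84 (SE 0.710, edgeR adjusted p 3.59e-06). The response to chilling differed among the lines (edgeR adjusted p of the joint test 0.0045), and in B73 and M37W the log2 fold changes were 1.17 (SE 0.916) and 1.02 (SE 0.909), with no call in the fit of all 16 libraries. Without the B104 and CML333 libraries the mean over these 2 lines rose by 1.09 (SE 0.286, edgeR adjusted p 0.0119).

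The large-subunit RNA rrn26 was also highest in the B104 controls, by a smaller factor than rrn18. It stood at 2817 and 3022 CPM there and at 766 and 367 CPM in chilled B104. In the other lines it stood at 196 and 309.7 CPM in control and 309 and 683 CPM in chilled B73, at 1162 and 218 and then 937 and 97.7 CPM in CML333, and at 362 and 177 and then 570.1 and 359.8 CPM in M37W. The B104 controls were the highest of the 16 libraries, the chilled B104 libraries lay within the range of the others, and control and chilled overlapped in the other 3 lines. In B104 the log2 fold change of -2.32 (SE 0.943) missed the threshold (edgeR adjusted p 0.0528). Against the other controls the B104 controls were higher by 3.31 (SE 0.666, edgeR adjusted p 0.000818). The ratio of rrn18 to rrn26 counts was 1.89 and 2.67 in the B104 controls and 0.102 to 0.314 in the other 14 libraries, both chilled B104 libraries among them.

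The small ribosomal RNA rrn5 stood at 725 and 243 CPM in the B104 controls and 224 and 258 CPM in chilled B104, and at 35.3 to 221 CPM in the other 12 libraries. It was higher in the B104 controls than in the other controls (log2 difference 2.40, SE 0.544, edgeR adjusted p 0.00191), but without B104 control replicate 1 the call was lost (adjusted p 0.0903). On the RefSeq map rrn5 neighbours rrn18, yet the ratio of rrn18 to rrn5 ran from 0.145 to 2.52 in the 14 other libraries.

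**Figure D4:**
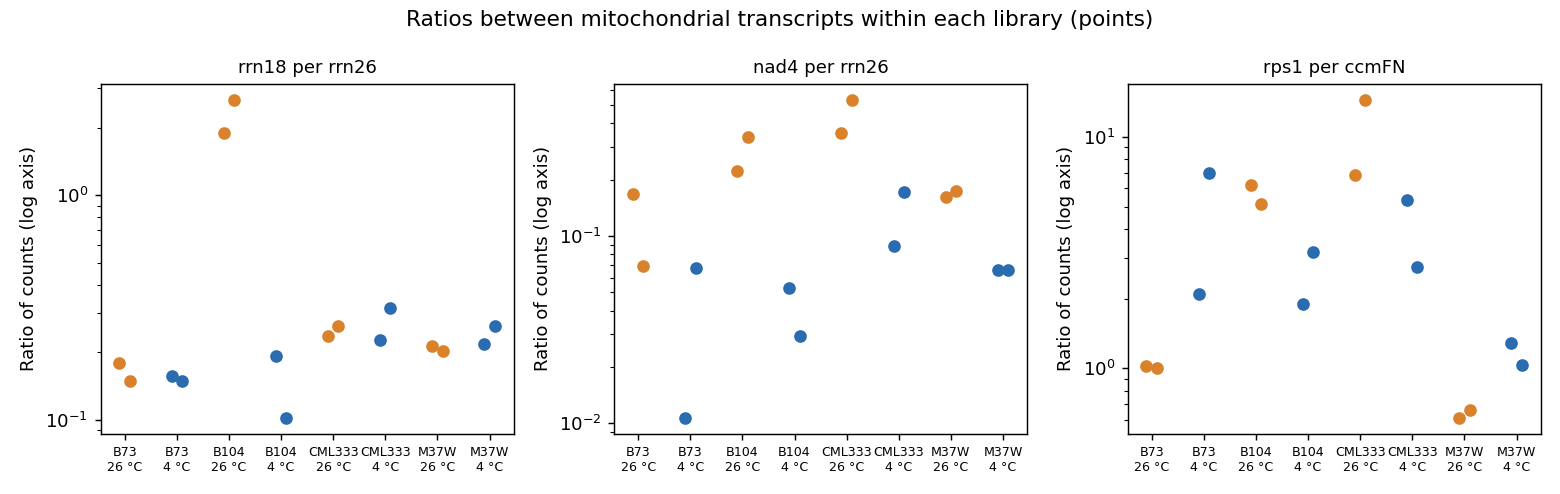
Ratios of counts within each library on log axes, for rrn18 over rrn26, nad4 over rrn26 and rps1 over ccmFN, with 1 point per library. The B104 controls (1.89 and 2.67) stand above all others (0.102 to 0.314) for rrn18 over rrn26, and nad4 over rrn26 is lower in both chilled libraries of each line than in both of its controls.

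The reading frame orf99-d, for which no function is named in the RefSeq table, was the most read mitochondrial ID outside the ribosomal RNAs. In control B73 it stood at 2889.5 and 2107 CPM, in chilled B73 at 217 and 899 CPM. In B104 it stood at 1307 and 1937 CPM and then at 1709 and 427 CPM, in CML333 at 245 and 127 and then 229 and 76.1 CPM, and in M37W at 409 and 212 and then 866 and 731 CPM. The controls therefore ordered as B73, B104, M37W and CML333, where M37W and CML333 overlapped and the others did not. On chilling orf99-d moved below both controls in B73 and above both in M37W. Among the B73, CML333 and M37W controls orf99-d differed (edgeR adjusted p 0.00718, joint test, where 22.2% of all IDs passed), and this held under all 24 alternatives, with an adjusted p of at most 0.0436. The B104 controls exceeded the mean of the other 3 control groups by 1.94 (SE 0.571, edgeR adjusted p 0.010), a call lost without B104 control replicate 2 (adjusted p 0.148).

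B73 controls exceeded M37W controls at orf99-d by 2.83 (SE 0.814, edgeR adjusted p 0.0425, where 9.48% of all IDs passed, either direction), a comparison added after the values were seen and lost in 13 of 26 alternatives. The log2 fold change on chilling was -1.85 in B73 (SE 0.784, edgeR adjusted p 0.187) and 1.43 in M37W (SE 0.776, adjusted p 0.393), and neither passed. The difference between these responses, also tested after the values were seen, was -3.28 (SE 1.10, edgeR adjusted p 0.290) and did not pass either. In that comparison 0 of the 22 IDs passed (0.00574% of all IDs did), with 2 at an unadjusted p under 0.05 (11.0% of all IDs) and 0 in DESeq2 (1.17% of all IDs). Without orf99-d the mitochondrial share was 0.0654% and 0.0778% in control and 0.0499% and 0.122% in chilled B73, so that the B73 groups overlapped once this ID was left out.

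**Figure D5:**
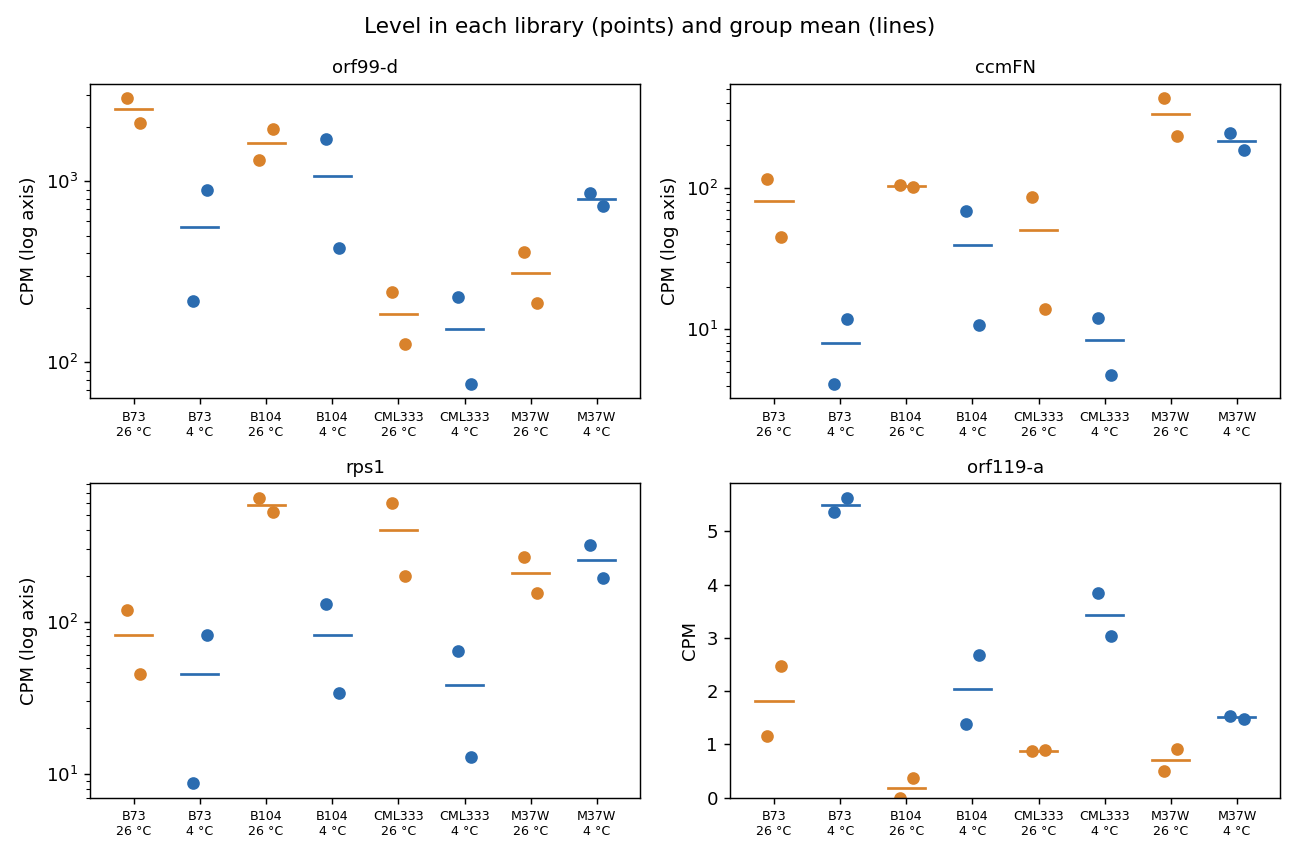
Levels of orf99-d, ccmFN and rps1 (CPM, log axis) and of orf119-a (CPM, linear axis) in the 16 libraries, with 1 point per library and control and chilled groups of each line side by side. Orf119-a is higher in both chilled libraries than in both controls in each of the 4 lines, and ccmFN is lower in B73, B104 and CML333. For orf119-a the low-count filter fixed the direction in B73.

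Orf119-a was the 1 mitochondrial ID whose chilled libraries lay above both controls in all 4 lines, as 2.13% of all tested IDs did. It was read weakly, and the low-count filter, which it passed only through the chilled B73 libraries, fixed its rise in B73. Its level was 1.16 and 2.47 CPM in control and 5.37 and 5.62 CPM in chilled B73, and 0 and 0.378 and then 1.39 and 2.68 CPM in B104. In CML333 it was 0.875 and 0.894 and then 3.84 and 3.03 CPM, and in M37W 0.494 and 0.906 and then 1.54 and 1.48 CPM. No mitochondrial ID lay below both controls in all 4 lines, as 2.96% of all tested IDs did. The library labelled CML333 chilled replicate 2, which went against its label on the chilling score, was among the higher ones. The mean log2 response was 2.06 (SE 0.456), and 1.71 without the B104 libraries. With the CML333 libraries left out too it was 1.46 and missed the threshold (edgeR adjusted p 0.0825). Each of these means includes the B73 rise that the filter fixed, so they are given as a description. In B104 alone the rise went from 1 to 9 counts, a CPM ratio of 10.9 (95% exact interval for counting error 1.51 to 479, edgeR adjusted p 0.0229), and the call was lost without B104 control replicate 1 or chilled replicate 2 (adjusted p up to 0.141). Per rrn26 count orf119-a was higher in both chilled libraries in 2 of the 4 lines. On the RefSeq map orf119-a follows orf99-d, trnR-a and atp4, and the groups of these neighbours did not separate in the same way.

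Of the other reading frames, orf101-a was at 1.11 and 0.378 CPM in the B104 controls and at 9.25 and 3.12 CPM in chilled B104, with 1.36 to 39.4 CPM in the other 12 libraries. It rose in B104 (27 against 4 counts, CPM ratio 8.20, 95% exact interval 2.86 to 32.2, edgeR adjusted p 0.0492) and was lower in the B104 controls than in the other controls (log2 difference -2.83, SE 1.10, edgeR adjusted p 0.0410), the 1 tested mitochondrial ID that was. The rise was lost without either B104 control, B104 chilled replicate 1, a B73 control or any M37W library (adjusted p up to 0.269). The lower control level was lost without either B104 control, or without control replicate 1 of B73, CML333 or M37W (up to 0.191).

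For orf140-b the level was 20.7 and 16.3 CPM in control and 4.16 and 0 CPM in chilled B104. It fell by 3.08 on the log2 scale there (SE 0.867, edgeR adjusted p 0.00912), a call lost without B104 chilled replicate 2 (adjusted p 0.0569). In CML333 it was 15.7 and 5.37 and then 1.92 and 0.865 CPM, and in M37W 4.44 and 3.17 and then 9.21 and 6.41 CPM. In B73 all 4 libraries lay between 1.55 and 2.25 CPM. Chilled lay below control in B104 and CML333 and above it in M37W, and the responses differed among the lines (edgeR adjusted p 0.0332, joint test, where 35.3% of all IDs passed). That call was lost in 9 of 16 fits with 1 library left out, each of B73 or M37W or CML333 control replicate 1 (adjusted p up to 0.0939). The B104 controls exceeded the other controls at orf140-b by 2.40 (SE 0.580, edgeR adjusted p 0.00288). The long reading frame orf1159 ran from 0.986 to 46.4 CPM and passed in no comparison of the fit of all 16 libraries.

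Among the ribosomal proteins, rps1 belongs to the small subunit, as do rps7 and rps12. In B104 rps1 stood at 651 and 521 CPM in control and 130.4 and 33.9 CPM in chilled libraries. In CML333 it stood at 597 and 201 and then 63.9 and 13.0 CPM. In B73 it stood at 118 and 45.3 and then 8.67 and 82.0 CPM, and in M37W at 265 and 155 and then 317 and 192 CPM. Chilled lay below control in B104 and CML333, and the groups overlapped in B73 and M37W. In B104 rps1 fell by 2.78 on the log2 scale (SE 0.999, edgeR adjusted p 0.0318), a call lost without either B104 control or without B104 chilled replicate 2 (adjusted p up to 0.205), and the log2 fold change of -3.10 in CML333 (SE 1.02) missed the threshold (adjusted p 0.0556). The mean response of -1.51 (SE 0.481, edgeR adjusted p 0.0248) was -1.06 without the B104 libraries (adjusted p 0.232) and -0.11 without the CML333 libraries too (0.940), and the call was also lost in 7 of 16 fits with 1 library left out (up to 0.0706). These 7 left out B73, CML333 or M37W control replicate 1, either B104 control, B104 chilled replicate 2 or M37W chilled replicate 2. The B104 controls exceeded the other controls by 1.91 (SE 0.702, edgeR adjusted p 0.0325), a call also lost in 7 such fits, with adjusted p up to 0.139 (either B104 control, control replicate 2 of B73, CML333 or M37W, or a chilled M37W library).

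The level of rps12 was 41.0 and 36.7 CPM in the B104 controls and 1.30 to 30.6 CPM in the other 14 libraries, and it was higher in these controls than in the other controls (log2 difference 2.38, SE 0.649, edgeR adjusted p 0.00657). For rps7 the range over all 16 libraries was 0.432 to 26.7 CPM, and it passed in no comparison of the fit of all 16 libraries, though it rose in B73 without the B104 and CML333 libraries. The complex I gene nad3 lies next to rps12 on the RefSeq map and ran from 0 to 7.0 CPM, also with no call in that fit. Without the B104 and CML333 libraries it was called as higher in chilled M37W. In that smaller fit nad3 passed the filter only through the chilled M37W libraries (5.63 and 6.90 CPM). The filter thus fixed this rise, and the call is not read as a result.

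The complex I subunit nad4 stood at 625 and 1026 CPM in control and 40.2 and 10.7 CPM in chilled B104. In CML333 it stood at 413 and 117 and then 83.1 and 16.9 CPM, in M37W at 58.3 and 30.8 and then 37.4 and 23.7 CPM, and in B73 at 32.9 and 21.4 and then 3.30 and 46.1 CPM. Chilled lay below control in B104 and CML333, and the groups overlapped in M37W and B73. In B104 nad4 fell by 5.0 (log2, SE 1.14, edgeR adjusted p 0.00269), and this call held in all 25 alternatives. The B104 controls exceeded the other controls by 3.91 (SE 0.715, edgeR adjusted p 0.000390). The other lines had log2 values of -2.12 in CML333 (SE 1.01, adjusted p 0.180), 0.16 in B73 (SE 1.01, adjusted p 0.964) and -0.48 in M37W (SE 0.998, adjusted p 0.883).

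The mean response of nad4 was -1.86 (SE 0.508, edgeR adjusted p 0.0115), but -0.79 without the B104 libraries (adjusted p 0.394) and -0.19 without the CML333 libraries too (adjusted p 0.887). The joint test of differing responses gave an edgeR adjusted p of 0.0479 and was lost in 13 of 16 fits with 1 library left out (up to 0.177), all but those without B73 chilled replicate 1 or a chilled CML333 library. Set against rrn26 of the same library, nad4 showed less overlap. There were 0.168 and 0.0691 nad4 counts per rrn26 count in control and 0.0107 and 0.0674 in chilled B73, 0.222 and 0.340 and then 0.0525 and 0.0292 in B104, 0.356 and 0.536 and then 0.0887 and 0.173 in CML333, and 0.161 and 0.174 and then 0.0655 and 0.0658 in M37W. Both chilled libraries lay below both controls in each line, by a narrow gap in B73. The same held for rps1, and for ccmFN, atp4 and cox1 in 3 of the 4 lines. Of all 17410 tested IDs, 16 (0.0919%) were lower per rrn26 count in this way in all 4 lines, nad4 and rps1 among them. Nearly all tested IDs lie outside the mitochondrial genome, and dividing by rrn26 brings the replicate spread of the mitochondrial share into them. Mitochondrial IDs have much of that spread in common with rrn26. The 0.0919% is therefore not a like background for nad4 and rps1. The choice of rrn26 as a denominator was made with the values known, and rrn26 itself had log2 fold changes of 1.26 in B73, 0.85 in M37W and -0.12 in CML333, none past the threshold in the fit of all 16 libraries. Without the B104 and CML333 libraries the mean over B73 and M37W rose by 1.05 for rrn26 (SE 0.340, edgeR adjusted p 0.0433), so the denominator itself was higher after chilling there.

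Of complex IV, cox1 carries the catalytic centre and cox3 is a further core subunit. For cox1 the B104 controls stood at 38.8 and 28.7 CPM and the chilled B104 libraries at 10.6 and 3.12 CPM, with 1.30 to 22.3 CPM in the other 12. In B104 it fell by 2.23 (log2, SE 0.800, edgeR adjusted p 0.0311), a call lost without either B104 control or B104 chilled replicate 2 (adjusted p up to 0.218), and was higher in the B104 controls than in the other controls (2.0, SE 0.566, edgeR adjusted p 0.00793, and 0.0545 without B104 control replicate 1). Cox3 stood at 39.2 and 37.4 CPM in control and 53.7 and 21.4 CPM in chilled B104, within the 6.05 to 181 CPM of the other 12 libraries, with a log2 fold change of 0.02 in B104 (SE 0.969) and no call in the fit of all 16 libraries. It rose in M37W when that line's libraries were fitted alone.

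The ATP synthase subunit atp4 stood at 33.3 and 27.6 CPM in control and 4.63 and 1.34 CPM in chilled B104, and at 0.481 to 9.88 CPM in the other 12 libraries. In B104 it fell by 3.28 (log2, SE 0.737, edgeR adjusted p 0.00233), a call that held in all 25 alternatives, and was higher in the B104 controls than in the other controls by 3.30 (SE 0.504, edgeR adjusted p 8.48e-05). Its log2 fold change was also below 0 in B73 (-1.11), CML333 (-0.69) and M37W (-0.71), with no call. The mean response of -1.45 (SE 0.436, edgeR adjusted p 0.0186) became -0.81 without the B104 libraries (adjusted p 0.310) and -0.92 without the CML333 libraries too (0.207), and missed the threshold without control replicate 1 of B73, CML333 or M37W (up to 0.0821). Atp4 lies next to trnR-a on the RefSeq map, and reads of the pair may not be fully told apart.

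CcmFN, part of the machinery that attaches heme to cytochrome c, was highest in M37W, with 433 and 234 CPM in control and 246 and 186 CPM in chilled libraries. In B73 it stood at 116 and 45.3 and then 4.13 and 11.8 CPM, in B104 at 105 and 102 and then 68.9 and 10.7 CPM, and in CML333 at 87.0 and 13.9 and then 12 and 4.76 CPM. All 4 M37W libraries exceeded the other 12, and chilled lay below control in B73, B104 and CML333. It differed among the 4 chilled groups (edgeR adjusted p 0.00390, joint test, where 22.5% of all IDs passed), the 1 mitochondrial ID that did, and this held in all 24 alternatives (at most 0.0248). With 1 library left out the number of mitochondrial IDs called there ran from 1 to 5 (5 without CML333 chilled replicate 1, 3 without B73 chilled replicate 2 or B104 chilled replicate 1, and 2 without B104 chilled replicate 2). Among the B73, CML333 and M37W controls it passed at an edgeR adjusted p of 0.0408, but 11 of 16 fits with 1 library left out lost the call (up to 0.228), all but those without a chilled B104 library, a chilled CML333 library or CML333 control replicate 1.

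The mean response of ccmFN was -1.82 (SE 0.447, edgeR adjusted p 0.00631). It held in all 25 alternatives, at -1.95 without the B104 libraries (adjusted p 0.0242) and -1.83 over B73 and M37W only (adjusted p 0.00319). In the single lines the log2 fold change was -3.05 in B73 (SE 0.959, edgeR adjusted p 0.0880), -2.33 in CML333 (SE 0.936, adjusted p 0.114), -1.33 in B104 (SE 0.857, adjusted p 0.208) and -0.56 in M37W (SE 0.829, adjusted p 0.805), and none passed in the fit of all 16 libraries. In B73 it passed without CML333 chilled replicate 1 or replicate 2. The test of differing responses gave 0.342 for ccmFN, which does not show that the lines responded alike. CcmFN was little higher in the B104 controls than in the other controls (0.19, SE 0.672, edgeR adjusted p 0.839).

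CcmFN and rps1 are neighbours on the RefSeq map, but their ratio differed between lines. There were 0.611 and 0.662 rps1 counts per ccmFN count in control M37W and 1.29 and 1.03 in chilled M37W, 1.02 and 1.0 and then 2.10 and 6.95 in B73, 6.20 and 5.13 and then 1.89 and 3.17 in B104, and 6.86 and 14.5 and then 5.32 and 2.73 in CML333. The ratio was higher after chilling in both libraries of B73 and M37W and lower in both of B104 and CML333. The other gene of this machinery that passed the low-count filter, ccmC, had 28 counts over the B104 controls and 2 over the chilled B104 libraries (CPM ratio 11.5, 95% exact interval for counting error 2.91 to 99.8), given as a description since it passed the filter through these controls.

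Transfer RNAs bring amino acids to the ribosome. Of the 29 transfer RNA IDs, 8 of which RefSeq marks as pseudogenes, 19 had no counts and 3 passed the low-count filter. The serine transfer RNA trnS-a stood at 53.2 and 36.7 CPM in the B104 controls and at 0 to 1.85 CPM in the other 14 libraries. The second serine transfer RNA, trnS-b, stood at 10.7 and 14.0 CPM there and at 0 to 0.512 CPM elsewhere. Its 66 counts against 1 in chilled B104 give a CPM ratio of 54.3 (95% exact interval for counting error 9.42 to 2178). The B104 controls were thus the highest of the 16 libraries for both, and no test is given, since both passed the low-count filter through these controls. Over the 14 libraries other than the B104 controls trnS-a had 18 counts and trnS-b 4. The B104 controls were also the libraries with 5.03% and 3.69% of counts in Ensembl noncoding RNA IDs, whose part in these differences was not tested. The ID trnR-a, named for arginine, is marked as a transfer RNA pseudogene. It was high in 1 B104 control only, at 73.2 and 4.16 CPM, with 4.16 and 7.14 CPM in chilled B104. Its fall (log2 -2.61, SE 1.01, edgeR adjusted p 0.0438) missed the threshold in 11 of 16 fits with 1 library left out (up to 0.782) and turned to 0.39 without B104 control replicate 1, and its higher level against the other controls (3.18, adjusted p 0.00189) became 0.17 (adjusted p 0.918).

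Of the 19 IDs that pass the filter also without the B104 controls, 11 were higher and 1 lower in the B104 controls than in the mean of the other controls, where 26.8% of all such IDs were higher and 26.7% lower. With ccmC, trnS-a and trnS-b counted there were 14 and 1 of 22, where 30.5% and 25.1% of all tested IDs were. The members below this threshold were cox3, ccmFN, rps7, nad3, orf1159, orf119-a and rbcL-ct. The joint test of differing responses called rrn18, orf140-b and nad4, 3 of the 22 and also 3 of the 19, where 35.3% of all tested IDs passed. The test among the B73, CML333 and M37W controls called 2 (orf99-d and ccmFN), where 22.2% passed. With 1 library left out the first count ran from 1 to 9 (9 without CML333 chilled replicate 1, 5 without replicate 2, and 1 without B73 control replicate 1, B73 chilled replicate 2, CML333 control replicate 1 or any M37W library). The second ran from 1 to 5 (5 without a chilled CML333 library, 4 without a chilled B104 library, and 1 without a control library of B73 or B104 or any M37W library). RbcL-ct, marked as a pseudogene, is a copy of the plastid gene for the large subunit of Rubisco. It ran from 0.447 to 11.2 CPM with no call in the fit of all 16 libraries. It fell in B73 without the B104 and CML333 libraries, and its reads may be shared with the plastid gene.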

How the data were processed

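Leaf RNA was read with a QuantSeq forward kit on an Illumina NextSeq, per the labels' protocols. For each library the authors deposited raw, whole-number counts per gene ID. The submitters' processing notes name STAR and edgeR. The sources used here do not give their versions, the genome build, the annotation, the strand setting or the treatment of reads with several matches. The authors' normalized tables for each line (16 columns) were not used.

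Lines and temperatures in the labels gave the groups. CPM are counts per 1000000 counts of the library, and RefSeq (assembly Zm-B73-REFERENCE-NAM-5.0) gave symbols and neighbours only. Counts were fitted in edgeR 4.0.16 (R 4.3.3) with filterByExpr, TMM factors, a mean for each of 8 groups and the robust quasi-likelihood test, two-sided, on all 16 libraries, and each SE is the fold change divided by the square root of F. The code was tested on simulated data. Alternatives were DESeq2 1.42.0 and other scalings, filters, thresholds, blocks and sets of libraries. Intervals of count ratios are exact and, like the level that a count of 0 allows (3 counts), cover counting error only. Named with values were the 12 IDs with the highest mean CPM over groups and every ID called in a comparison, besides neighbours and tested IDs given by their range. The members, lists and tests were chosen with earlier results of these data known. Replicate numbers in the titles did not pair the libraries (correlation of deviations -0.0382, 0.0380, 0.103 and 0.0925 in B73, B104, CML333 and M37W). The sample descriptions carry another number, from 1 to 3, which differs from the title number in some libraries. It served as a block in 1 alternative, and its pairing was not checked in this way.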

Additional observations from a re-analysis of the deposited data

Results flagged for a closer look

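The response to chilling differed among the 4 lines by the joint edgeR quasi-likelihood test for rrn18 (adjusted p 0.0045), orf140-b (adjusted p 0.0332) and nad4 (adjusted p 0.0479). For rrn18 the log2 fold change was -6.15 in B104, against 1.17 in B73, -0.15 in CML333 and 1.02 in M37W, and the call held in all 23 alternatives. For orf140-b it was -3.08 in B104 and -2.65 in CML333, against 0.36 in B73 and 1.09 in M37W. For nad4 it was -5.00 in B104 and -2.12 in CML333, against 0.16 in B73 and -0.48 in M37W. The B104 values rest on the control libraries that stood apart, and the part of that in these differences was not tested. Groups of 2 libraries are too small for a test of outlying samples.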

How the results depend on the processing

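Of 1431 recomputed values, 1173 were labelled as unchanged. A tested ID had to keep its direction and side of the threshold, and a count of calls to stay within 1.5 times of the main count. A share had to move by less than the replicate spread. With 1 of 2 libraries left out a share always does so, and those values say nothing of stability. A single value turned its sign, trnR-a in B104 without B104 control replicate 1 (0.386, with -3.47 as the lowest value when another library was left out). The count of mitochondrial IDs higher or lower in the B104 controls stayed within 1.5 times of 15 under every alternative run, and that for B104 was 6 at an adjusted p under 0.01 in place of 12 (these counts include ccmC, trnS-a and trnS-b). DESeq2 called 1 in B73, 2 in CML333, 5 in the test of differing responses, 4 among the other controls and 3 among the chilled groups. Without a low-count filter the counts were 3 in B73, 6 in CML333, 9 in the mean response, 14, 11 and 7 in the same 3 joint tests. At an adjusted p under 0.01 the mean response kept 2, the differing responses 1 and the controls 1. Without the B104 controls the comparison among the other controls kept 1. Without the B104 and CML333 libraries 4 were called in B73 (orf119-a, ccmFN, rbcL-ct and rps7) and 1 in M37W (nad3), with the line's libraries alone 3 in B73 and 4 in M37W, and without the CML333 libraries, added after seeing the data, 1 in B73. The mean over B73, CML333 and M37W, also added, had 2 calls, and that over B73 and M37W 4 (ccmFN, nad3, rrn18 and rrn26). In the fit of B73 and M37W only, orf119-a passed the filter only through chilled B73 and nad3 only through chilled M37W. The filter thus fixed these rises, and their calls are not read as results. With 1 library left out, counts ran from 0 to 1 in B73, 6 to 15 in B104, 0 to 3 in CML333, 3 to 9 in the mean response, 1 to 9 for differing responses, 1 to 5 among controls and 1 to 5 among chilled groups. A lone library was then assumed to vary like the other groups. Where a comparison needs the left-out group, no value could be had. The causes of these changes were not tested.

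A replicate block by title number gave 1 call in CML333 (rps1), 13 in B104, 5 in the mean response and 3, 3 and 1 in the joint tests of responses, controls and chilled groups. The numbers do not pair the libraries, so a changed call under the block says nothing of the effect's size.

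The mitochondrial share of counts was 0.0716% in control B73 and 0.132% in chilled M37W without orf99-d, and 0.347% in control B104 and 0.145% in chilled M37W without the ribosomal RNA IDs. Per 100 counts of protein type, rrn18 had 12.4 in chilled B73, 196.7 in control B104, 7.0 in chilled B104, 13.1 and 30.8 in control and chilled CML333, and 5.57 and 7.62 in control and chilled M37W. Depth limits most members: 186 of 208 were too weak to test.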
